A study of Mus musculus with 26 samples.

Results

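The 32 genes described here make and regulate cholesterol and fatty acids in the cell. The list holds 18 enzymes of sterol synthesis, ordered by reaction, 6 genes that regulate the pathway or carry sterol, and 8 enzymes of fatty acid synthesis and desaturation. The rule names genes by their role and uses no measured value, the list does not hold every gene of these pathways, and all 32 were found among the 45318 genes of the RNA-seq count files. Every member passed the filter on low counts, with between 85 counts (Tm7sf2) and 158577 counts (Scd2) in a library.

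RNA-seq of polyadenylated RNA was made from 4T1 cells, a triple-negative mammary carcinoma line of the BALB/c mouse grown in DMEM with serum, to ask which genes change when the nuclear lncRNA MaTAR25 is lost. The 2 control libraries are labelled wild type, and per the study's methods the negative control cells had received a Renilla luciferase sgRNA. The 3 KO1 and the 4 KO2 libraries came from MaTAR25-/- cells, in which CRISPR/Cas9 and pairs of sgRNAs removed the region around the transcription start site. Each KO group is 1 line from a single sorted cell, so the libraries of a group share their clone, and differences that a clone carries for other reasons cannot be told apart from those of the deletion. Nothing in the labels says that libraries came from separate cultures, so p-values measure only the spread between libraries.

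Cells build cholesterol from acetyl-CoA through mevalonate, isoprenoid units, squalene and lanosterol, and they build fatty acids from acetyl-CoA through malonyl-CoA. Both routes are controlled by the SREBP transcription factors, which sit as precursors in the membrane of the endoplasmic reticulum. When sterols are scarce, the escort protein SCAP carries them to the Golgi for cleavage, and when sterols are plentiful the INSIG proteins hold SCAP back. Dividing tumor cells use both products for new membranes.

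The gene counts of a library ran from 25367211 (KO2 replicate 2) to 61110585 (KO1 replicate 1). For MaTAR25 (1200007C13Rik), the controls held 35 and 30 counts, while each KO library held between 0 and 11 (log2 fold change -2.63, SE 0.82, adjusted p = 0.0561, edgeR). The 6 epithelial markers, led by keratins, summed to between 2194 and 7330 CPM (reads of a gene scaled to the size of its library) in every library with none at 0, so the defining markers of an epithelial line were present in every library. That sum was 3719 to 3902 CPM in control, 5053 to 7330 in KO1 and 2194 to 4532 in KO2, and its genes moved in opposite directions. Cdh1 was called lower in KO (log2 fold change -0.65, edgeR adjusted p = 0.0684) and in KO2 (-0.85, adjusted p = 0.0105), while Krt7 (1.89, adjusted p = 0.0047) and Krt8 (1.32, adjusted p = 0.0232) were called higher in KO1. The 4 immune markers summed to 8.15 to 9.66 CPM in control, 14.3 to 29.3 in KO1 and 4.88 to 28.9 in KO2, and Cd3e did not pass the filter on low counts. The 3 fibroblast markers summed to between 11.8 and 47.6 CPM with Dcn at 0 in every library, the 3 endothelial markers to at most 1.56 CPM, and the 5 adipocyte markers to at most 0.80 CPM with Lep at 0 in every library. Of these, Col1a1 was called lower in KO (3.99 and 2.65 CPM in control, at most 0.995 CPM in KO, edgeR adjusted p = 0.0132) and Fabp4 higher (0 counts in control, at most 0.758 CPM in KO, adjusted p = 0.0184). The endothelial marker Cdh5 was called higher in KO2 (at most 1.39 CPM, log2 fold change 5.48, edgeR adjusted p = 0.0317). The part of these differences in the results was not tested.

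The promoters are shown because the regulators in the list act through them. A promoter window here is the 300 bases from 250 before to 50 after a transcription start, read from RefSeq for GRCm38.p6, and 25 of the 32 members had at least 1 such window (33 in all). A gene was counted if any of its windows held the letters. Letters were searched on both strands, with no mismatch allowed. A window without the letters does not show that a factor has no site at the gene. The sterol regulatory element type letters TCACNCCAC stood in the window of 1 of the 25 members, Hmgcs1, and in 1.36% of the 10504 tested genes with a window. The match lies at chr13:119690204-119690232, with the capitals at -137 to -129 from the start on the strand of the gene.
Hmgcs1: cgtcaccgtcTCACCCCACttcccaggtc

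CCAAT, the letters bound by NF-Y, a factor that works beside SREBP at many lipid gene promoters, stood in the windows of 20 of the 25 members (80.0%) and in 42.7% of the tested genes. The GC box letters GGGCGG stood in 21 members (84.0%) against 67.6%, and the E-box letters CACGTG in 5 members (20.0%) against 11.5%. For 8 of the members called below, the copy of CCAAT that lies before the start and nearest to it is printed with its flanks and CCAAT in capitals. Mvk is written on the strand of the gene and the other 7 on the opposite strand. The start is that of a RefSeq transcript, and for Srebf1, Dhcr7 and Idi1 it is an internal one, since the printed bases end 12096, 7036 and 76 bases inside the annotated span of the gene. Such a match describes letters of the reference and does not say whether a factor was bound.
Mvk (chr5:114444207-114444235): ttaatgtttgacCCAATctgtaaaggagc
Idi1 (chr13:8885549-8885577): tgcccgggctcgCCAATcagctggaggca
Nsdhl (chrX:72918489-72918517): gcatgattttgcCCAATgaggctagtctt
Hsd17b7 (chr1:169969262-169969290): gcgttaggcccgCCAATcgcgactcggca
Ebp (chrX:8193551-8193579): gaatctgacgaaCCAATcagtacagggat
Dhcr7 (chr7:143830153-143830181): ggtcacagacgaCCAATcggaagtggatt
Srebf1 (chr11:60210485-60210513): gagcgcacatggCCAATcagcagccgcgc
Fasn (chr11:120824590-120824618): tccacatcgaaaCCAATtggacaccgagg

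Loss of MaTAR25 went with higher RNA of many of these genes, in each of the 3 roles. Fasn, the multi-enzyme that builds palmitate, was 4.18-fold higher in KO than in control, and Srebf1, the SREBP gene that leans towards fatty acid synthesis, was 3.17-fold higher. Ebp, a sterol isomerase late in cholesterol synthesis, had the largest difference, at 5.76-fold. The enzymes of the squalene and lanosterol steps and Srebf2, the SREBP gene that leans towards sterol synthesis, were not called. With the 7 KO libraries as 1 group against the 2 control libraries, 16 of the 32 members passed an adjusted p of 0.1 in edgeR's quasi-likelihood test, all of them higher in KO, where 11.9% of the 15023 genes tested were called higher and 22.6% in either direction. Among the 8957 tested genes at least as abundant as the least abundant member (11.9 CPM over all libraries), that share was 15.8%. No member was called lower in edgeR or in DESeq2, and 0 members were lower at an unadjusted p under 0.05 in edgeR, where 10.7% of all tested genes were called lower. Of the log2 fold changes, 30 of 32 were above 0, with a median of 0.85 beside 0.06 over all tested genes.

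In 15 of the 32 members every KO library was above both control libraries, a pattern found in 16.9% of the tested genes (no overlap in either direction in 34.4%). These 15 were all among the called members, and the other called member is Stard4. By role, 6 of 8 fatty acid enzymes (median log2 fold change 1.16), 3 of 6 regulators and carriers (0.82) and 7 of 18 sterol enzymes (0.70) were called, and the difference between the roles was not tested. The count rests on both control libraries: with control replicate 1 or control replicate 2 left out, 3 members were called each time, namely Fasn, Srebf1 and Fads2, and the lone control library was then assumed to vary like the KO libraries. Calls fell across all genes in these fits, to 1.26% and 1.57% called higher.

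**Figure D1:**
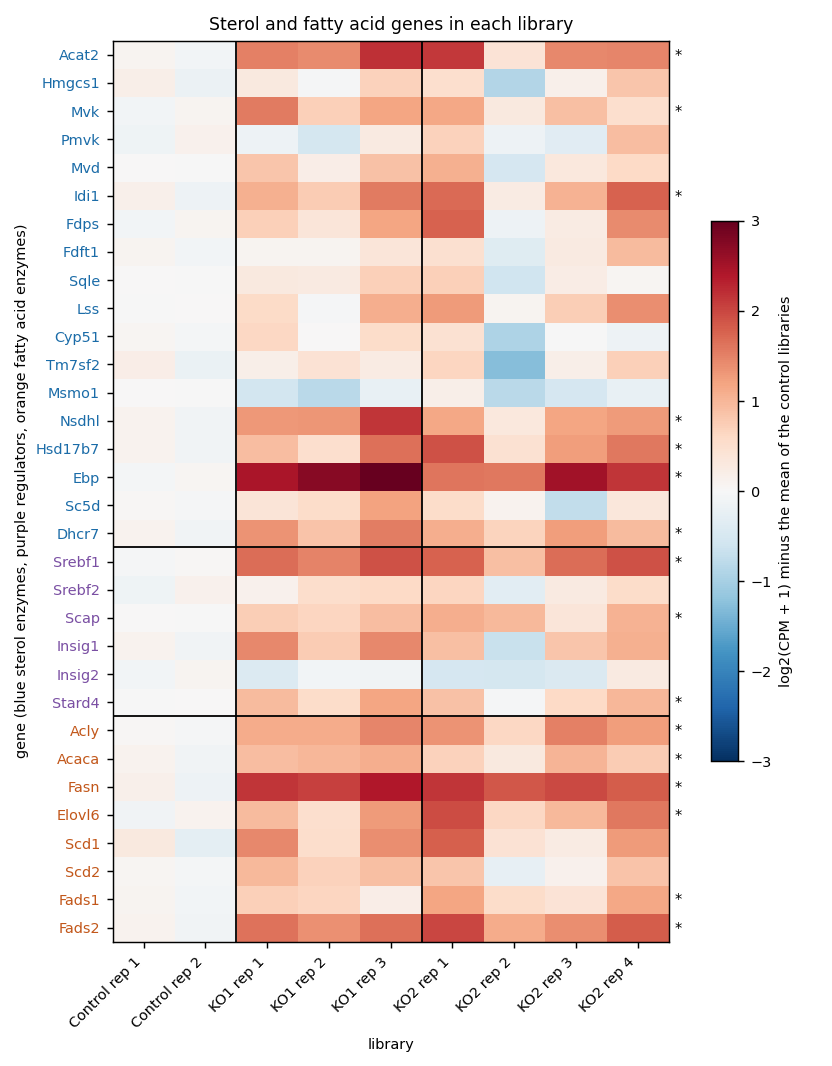
Level of each of the 32 genes (vertical axis, in order of role) in each of the 9 libraries (horizontal axis), as log2(CPM + 1) minus the mean of the control libraries. Red is higher and blue lower than control, an asterisk marks the 16 members with an adjusted p under 0.1 in KO against control, and KO2 replicate 2 is the palest or bluest KO column, with a median of 0.17 over the members against 0.50 to 1.18 in the other KO libraries.

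KO2 replicate 2, the library with the fewest gene counts, was the lowest of the 7 KO libraries in 24 of the 32 members (75.0%), which it was in 21.6% of all tested genes. Its median difference from control, in log2(CPM + 1), was -0.03 over the sterol enzymes, -0.17 over the regulators and carriers and 0.58 over the fatty acid enzymes. The other KO libraries had medians between 0.50 and 1.18 over all members. Over all tested genes, its median difference was near that of the others (-0.02). Without this library 21 members were called in KO against control, the 16 called with it and Mvd, Srebf2, Insig1, Scd1 and Scd2, where 13.8% of all tested genes were called higher.

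The sterol enzymes open with the steps that turn acetyl-CoA into isoprenoid units. Acat2, the cytosolic thiolase that joins acetyl-CoA units, was at 26.6 and 23.8 CPM in control, 74.0, 69.0 and 119 CPM in KO1 and 113, 33.8, 70.1 and 71.9 CPM in KO2. All 7 KO libraries were above the controls, KO2 replicate 2 least so. The log2 fold change was 1.64 (SE 0.42, edgeR adjusted p = 0.0259), and a two-sided exact permutation test on log2(CPM + 1) gave p = 0.0278, the smallest value that the 36 splits of 2 and 7 libraries allow. Hmgcs1, the HMG-CoA synthase whose promoter carried the sterol element letters printed above, was at 144 and 111 CPM in control, 155, 124 and 205 CPM in KO1 and 179, 68.1, 141 and 226 CPM in KO2. The groups overlapped, with 4 KO libraries above both controls and KO2 replicate 2 far below them. Its log2 fold change was 0.30 (SE 0.36, edgeR adjusted p = 0.615), and 0.43 without KO2 replicate 2 (adjusted p = 0.252).

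Mvk, which phosphorylates mevalonate, was at 26.4 and 30.1 CPM in control, 84.9, 46.8 and 65.4 CPM in KO1 and 64.5, 34.7, 53.3 and 40.1 CPM in KO2. No KO library reached down to the controls, and KO2 replicate 2 came nearest. KO exceeded control by 0.98 on the log2 scale (SE 0.32, edgeR adjusted p = 0.0684). Idi1, the isomerase that makes the reactive isoprenoid unit, was at 10.3 and 8.30 CPM in control, 20.4, 16.5 and 29.2 CPM in KO1 and 32.3, 11.2, 20.3 and 33.9 CPM in KO2. It was higher in every KO library, although KO2 replicate 2 was within 1 CPM of the higher control. It was higher in KO by 1.33 on the log2 scale (SE 0.42, edgeR adjusted p = 0.0586).

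The next enzymes make squalene and close the sterol ring. Fdft1, squalene synthase, was at 81.1 and 71.4 CPM in control, 80.6, 80.5 and 98.6 CPM in KO1 and 106, 59.3, 92.6 and 147 CPM in KO2. The groups overlapped, with 4 KO libraries above both controls, and the log2 fold change was 0.32 (SE 0.28, edgeR adjusted p = 0.483). Fdft1 shares exon sequence with Ctsb on the opposite strand, and the library kit does not mark strand. Sqle, squalene epoxidase and a rate-limiting step of the pathway, was at 135 and 133 CPM in control, 164, 163 and 222 CPM in KO1 and 219.7, 88.8, 158 and 139 CPM in KO2. The controls lay close together, 6 KO libraries were above them and KO2 replicate 2 was well below. The fitted difference was 0.30 on the log2 scale (SE 0.29, edgeR adjusted p = 0.527), and 0.40 without KO2 replicate 2 (adjusted p = 0.198).

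Of the 8 enzymes that turn lanosterol into cholesterol, 4 were called. Nsdhl, which removes carbon from the sterol ring, was at 25.3 and 21.4 CPM in control, 58.5, 60.2 and 106 CPM in KO1 and 53.4, 29.2, 54.2 and 58.2 CPM in KO2. KO1 replicate 3 was the highest library and KO2 replicate 2 the lowest of the KO libraries, still above both controls. In KO the level was up by 1.36 on the log2 scale (SE 0.39, edgeR adjusted p = 0.0416). Hsd17b7, the ketoreductase of the same demethylation, was at 17.4 and 14.8 CPM in control, 31.5, 23.3 and 52.6 CPM in KO1 and 62.8, 22.3, 39.5 and 49.8 CPM in KO2. Its KO libraries spread widely, and none overlapped control. The log2 fold change was 1.32 (SE 0.42, edgeR adjusted p = 0.0588).

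Ebp (ENSMUSG00000031168.11, chrX:8185329-8193512), the isomerase that moves a double bond of the sterol ring, was at 9.99 and 10.8 CPM in control, 61.1, 74.5 and 103 CPM in KO1 and 33.8, 33.3, 64.0 and 49.8 CPM in KO2. Every KO library was at least 3 times the control libraries, and the KO1 libraries tended to the top. KO exceeded control by 2.53 on the log2 scale (SE 0.46, edgeR adjusted p = 0.00717). Dhcr7, which catalyzes the last step of a main branch to cholesterol, was at 47.9 and 41.6 CPM in control, 116, 81.5 and 132 CPM in KO1 and 95.8, 71.8, 108 and 87.6 CPM in KO2. The groups did not overlap and the KO libraries were more alike than for the enzymes above. It was higher in KO by 1.14 on the log2 scale (SE 0.24, edgeR adjusted p = 0.0131). An exact permutation test gave p = 0.0278 for Mvk, Idi1, Nsdhl, Hsd17b7, Ebp and Dhcr7.

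The 9 members not described by library are Pmvk, Mvd, Fdps, Lss, Cyp51, Tm7sf2, Msmo1 and Sc5d, all sterol enzymes, and the regulator Insig2. Their log2 fold changes ran from -0.38 (Msmo1) to 1.03 (Fdps), 7 of them above 0, and none was called (edgeR adjusted p from 0.168 to 0.788). Mvd, the decarboxylase that makes the isoprenoid unit, was at 28.2 CPM in both controls and above that in 6 of 7 KO libraries. Msmo1, which oxidizes the methyl groups at the ring, was at 201 and 199 CPM in control and below both in 6 of 7 KO libraries, from 113 to 227 CPM. Cyp51, the lanosterol demethylase, shares exon sequence with Akap9 on the opposite strand, and Tm7sf2 with Vps51 on the same strand. In all, 11 members share exon sequence with another gene. Besides Fdft1, Cyp51, Tm7sf2 and Srebf1, these are Hmgcs1, Idi1, Fdps, Lss, Scap, Elovl6 and Scd2.

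**Figure D2:**
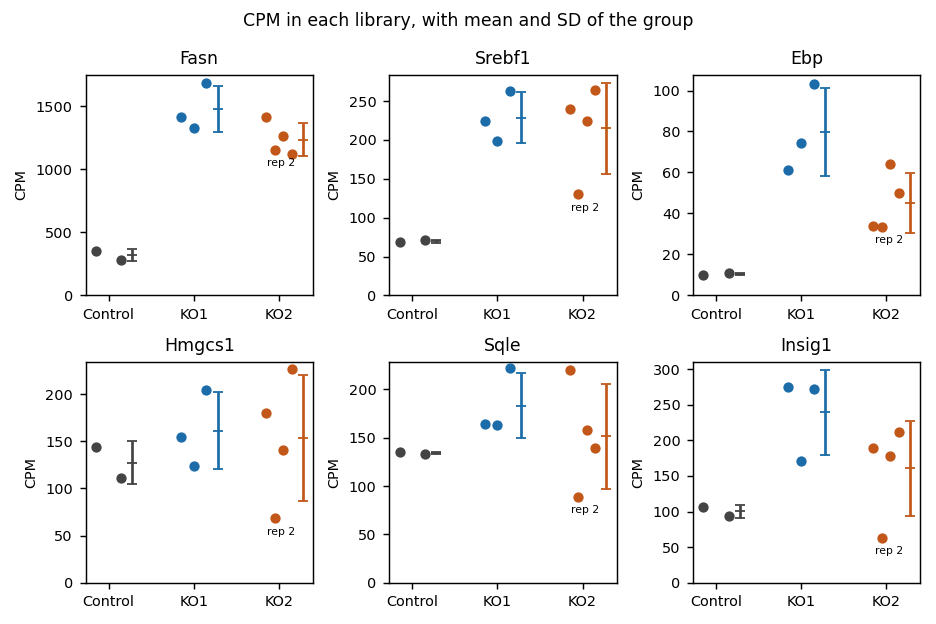
CPM in each library (points) of 6 of the genes, with the mean and SD of each group (bars), for control (n = 2), KO1 (n = 3) and KO2 (n = 4). Each panel has its own vertical axis from 0. In Fasn, Srebf1 and Ebp no KO library reaches the controls, while in Hmgcs1, Sqle and Insig1 KO2 replicate 2, marked, lies below both.

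Among the regulators, the transcription factor genes differed in their calls. Srebf1 (ENSMUSG00000020538.12, chr11:60199089-60222581), with a CCAAT before an internal start printed above, was at 68.3 and 70.9 CPM in control, 225, 198 and 263 CPM in KO1 and 240.2, 130.2, 225 and 265 CPM in KO2. All KO libraries were above control, with KO2 replicate 2 apart from the other 6. The fitted difference was 1.67 on the log2 scale (SE 0.26, edgeR adjusted p = 0.00399; exact permutation p = 0.0278), and Srebf1 was called in 16 of 16 alternative fits. It shares exon sequence with Rai1 on the opposite strand. Srebf2 was at 167 and 201 CPM in control, 202, 265 and 277 CPM in KO1 and 287, 147, 221 and 266 CPM in KO2. The groups overlapped through KO2 replicate 2, and KO1 replicate 1 was level with the higher control. A log2 fold change of 0.37 was fitted (SE 0.24, edgeR adjusted p = 0.320), and 0.46 without KO2 replicate 2 (adjusted p = 0.0963). The difference between the log2 fold changes of Srebf1 and Srebf2 was not tested.

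Scap, the escort of both SREBP proteins, was at 75.0 and 74.4 CPM in control, 125, 118 and 142 CPM in KO1 and 161, 149, 96.7 and 155 CPM in KO2. Here KO2 replicate 3 and not replicate 2 was the lowest KO library, and none overlapped control. The log2 fold change was 0.86 (SE 0.20, edgeR adjusted p = 0.0203; exact permutation p = 0.0278). Insig1, the retention protein that is itself an SREBP target, was at 107 and 93.7 CPM in control, 275, 171 and 272 CPM in KO1 and 189.5, 63.0, 178 and 212 CPM in KO2. Of the KO libraries 6 were well above control and KO2 replicate 2 was below it. A log2 fold change of 0.95 was fitted (SE 0.44, edgeR adjusted p = 0.171), and 1.10 without KO2 replicate 2 (adjusted p = 0.0134). It was called in 2 of 16 alternative fits, the one without this library and DESeq2 with all libraries (DESeq2 adjusted p = 0.0921).

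Stard4, a carrier of sterol between membranes, was at 55.3 and 55.4 CPM in control, 108, 81.7 and 128 CPM in KO1 and 102, 54.0, 84.3 and 111 CPM in KO2. KO2 replicate 2 fell just under the controls and the other 6 lay above. It was higher in KO by 0.79 on the log2 scale (SE 0.28, edgeR adjusted p = 0.0892; exact permutation p = 0.0833), and it was called in 6 of 16 alternative fits. Insig2, the other retention protein, was at 71.7 and 79.7 CPM in control and between 52.4 and 90.8 CPM in KO, with 1 KO library above both controls (log2 fold change -0.23, edgeR adjusted p = 0.505).

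The fatty acid enzymes begin with supply of the building blocks. Acly, which makes cytosolic acetyl-CoA from citrate, was at 241 and 227 CPM in control, 504, 511 and 651 CPM in KO1 and 601, 359, 667 and 557 CPM in KO2. Every KO library was clearly above control. The fitted difference was 1.23 on the log2 scale (SE 0.23, edgeR adjusted p = 0.00776). Acaca, the carboxylase that makes malonyl-CoA, was at 73.3 and 62.3 CPM in control, 129, 135 and 145 CPM in KO1 and 110.3, 82.6, 138 and 116 CPM in KO2. The KO1 libraries were close together, and KO2 replicate 2 was nearest control. In KO the level was up by 0.85 on the log2 scale (SE 0.22, edgeR adjusted p = 0.0266). Fasn (ENSMUSG00000025153.8, chr11:120805846-120824547) was at 356 and 284 CPM in control, 1417, 1330.3 and 1681 CPM in KO1 and 1412, 1152, 1262 and 1119.7 CPM in KO2. It had the smallest SE of any member, KO2 replicate 2 did not stand apart in it, and it was called in 16 of 16 alternative fits. The log2 fold change was 2.06 (SE 0.20, edgeR adjusted p = 0.000839). The exact permutation p was 0.0278 for each of Acly, Acaca and Fasn.

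Elovl6, which lengthens palmitate, was at 69.8 and 81.4 CPM in control, 146, 107 and 185 CPM in KO1 and 294, 116, 149 and 228 CPM in KO2. The groups did not overlap, and the KO libraries ranged widely. KO exceeded control by 1.21 on the log2 scale (SE 0.38, edgeR adjusted p = 0.0557; exact permutation p = 0.0556). Scd1, a desaturase that makes oleate from stearate, was at 81.3 and 53.2 CPM in control, 181, 96.0 and 175 CPM in KO1 and 229.5, 88.5, 78.1 and 160.2 CPM in KO2. KO2 replicate 3 lay between the controls, which were themselves apart, and the other KO libraries were higher. A log2 fold change of 1.10 was fitted (SE 0.43, edgeR adjusted p = 0.112), and 1.18 without KO2 replicate 2 (adjusted p = 0.0779). Scd2, the related desaturase and the most abundant member per length, was at 1358 and 1234 CPM in control, 2527, 2105 and 2434 CPM in KO1 and 2304, 1092, 1416 and 2347 CPM in KO2. The KO1 libraries were all high, and KO2 split into 2 high libraries, 1 near control and replicate 2 below it. The fitted difference was 0.65 on the log2 scale (SE 0.30, edgeR adjusted p = 0.174), and 0.75 without KO2 replicate 2 (adjusted p = 0.0386). Reads that align equally well to both of these related genes would not be assigned to either. How many did so was not tested, so the levels of both genes are uncertain.

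Fads1, a front-end desaturase of polyunsaturated fatty acids, was at 82.8 and 73.2 CPM in control, 128, 122 and 88.9 CPM in KO1 and 178, 115, 104 and 175 CPM in KO2. All KO libraries were above control, KO1 replicate 3 only just. In KO the level was up by 0.74 on the log2 scale (SE 0.27, edgeR adjusted p = 0.0954; exact permutation p = 0.0556), and it was called in 8 of 16 alternative fits. Fads2, which acts before Fads1 in the same route, was at 66.0 and 57.6 CPM in control, 193, 160.4 and 194 CPM in KO1 and 251, 134, 164 and 221 CPM in KO2. The groups were far apart, with KO2 replicate 2 again the lowest KO library. The log2 fold change was 1.61 (SE 0.25, edgeR adjusted p = 0.00368; exact permutation p = 0.0278), called in 16 of 16 alternative fits.

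Per kilobase of exon, the order of levels within control was led by Scd2, at 249 and 226 CPM per kb in the control libraries. Acly came next at 45.7 and 43.1 CPM per kb. Msmo1, Insig1, Cyp51, Fasn and Hmgcs1 followed. Each overlapped the next in its control libraries, so the order of these neighbors is not set by these data. Msmo1, at 32.7 and 32.4 CPM per kb, did not overlap Hmgcs1, at 31.3 and 24.2 CPM per kb. Fasn, at 32.5 and 26.0 CPM per kb in control, rose in level to between 102 and 154 CPM per kb in the KO libraries. Fdps was the lowest, at a mean of 1.68 CPM per kb in control, below both libraries of Tm7sf2 (mean 2.32), which in turn overlapped Idi1. Both Fdps and Tm7sf2 share exon sequence with another gene on the same strand, and the effect of this on their counts was not tested. Exon length here is that of all annotated exons of a gene together. Of the 31 pairs of neighbors in this order, 20 overlapped in their control libraries. These levels are a description with no test, and reads were not corrected for mappability.

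The KO1 and KO2 clones were then each set against control in a fit with 3 groups. They share the same 2 control libraries, so the agreement of their directions is partly built in and only their own values are given. In KO1, edgeR called 17 members, all higher, where 15.9% of the tested genes were called higher, 15.7% lower and 31.6% in all. In KO2, 15 members were called, all higher, where 16.5% of the tested genes were called higher, 15.0% lower and 31.4% in all. Among tested genes at least as abundant as the least abundant member, the shares called higher were 20.3% in KO1 and 19.9% in KO2. No member was called lower in either clone by this edgeR fit or DESeq2, and none was lower at an unadjusted p under 0.05 in this edgeR fit. Lower calls in alternative edgeR fits are given further down. Median log2 fold changes over the members were 0.91 in KO1 and 0.82 in KO2, beside 0.02 and 0.03 over all tested genes.

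Both clones passed the threshold in 14 members, where 9.91% of the tested genes were called higher in both against the same control libraries. The 14 were Acat2, Mvk, Idi1, Nsdhl, Hsd17b7, Ebp, Dhcr7, Srebf1, Scap, Acly, Acaca, Fasn, Elovl6 and Fads2. Fasn was 4.61-fold higher in KO1 (1476 ± 183 CPM, SD, n = 3) and 3.86-fold higher in KO2 (1237 ± 132 CPM, SD, n = 4) than in control (320.1 ± 50.8 CPM, SD, n = 2), with edgeR adjusted p = 0.000577 and 0.000462. Srebf1 was 3.29-fold higher in KO1 and 3.09-fold in KO2 (edgeR adjusted p = 0.00376 and 0.00428). Fads2 was 2.96-fold and 3.11-fold higher (edgeR adjusted p = 0.00415 and 0.00334). Acly was 2.37-fold and 2.33-fold higher (edgeR adjusted p = 0.00883 and 0.00828). For none of these 4 genes did the direct test between the clones pass, which does not show that they are alike (edgeR adjusted p from 0.265 to 0.952).

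Insig1, Scd2 and Stard4 were called in KO1 and not in KO2. Their log2 fold changes were 1.25, 0.86 and 0.94 in KO1 (edgeR adjusted p = 0.0683, 0.0719 and 0.0502) and 0.68, 0.47 and 0.67 in KO2 (0.263, 0.274 and 0.120). Without KO2 replicate 2, the KO2 values were 0.94, 0.64 and 0.84 (edgeR adjusted p = 0.0156, 0.0603 and 0.0198). Fads1 was called in KO2 (0.87, edgeR adjusted p = 0.0406) and not in KO1 (0.54, adjusted p = 0.181). The direct test between the clones did not pass for any of the 4 (edgeR adjusted p from 0.309 to 0.499).

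**Figure D3:**
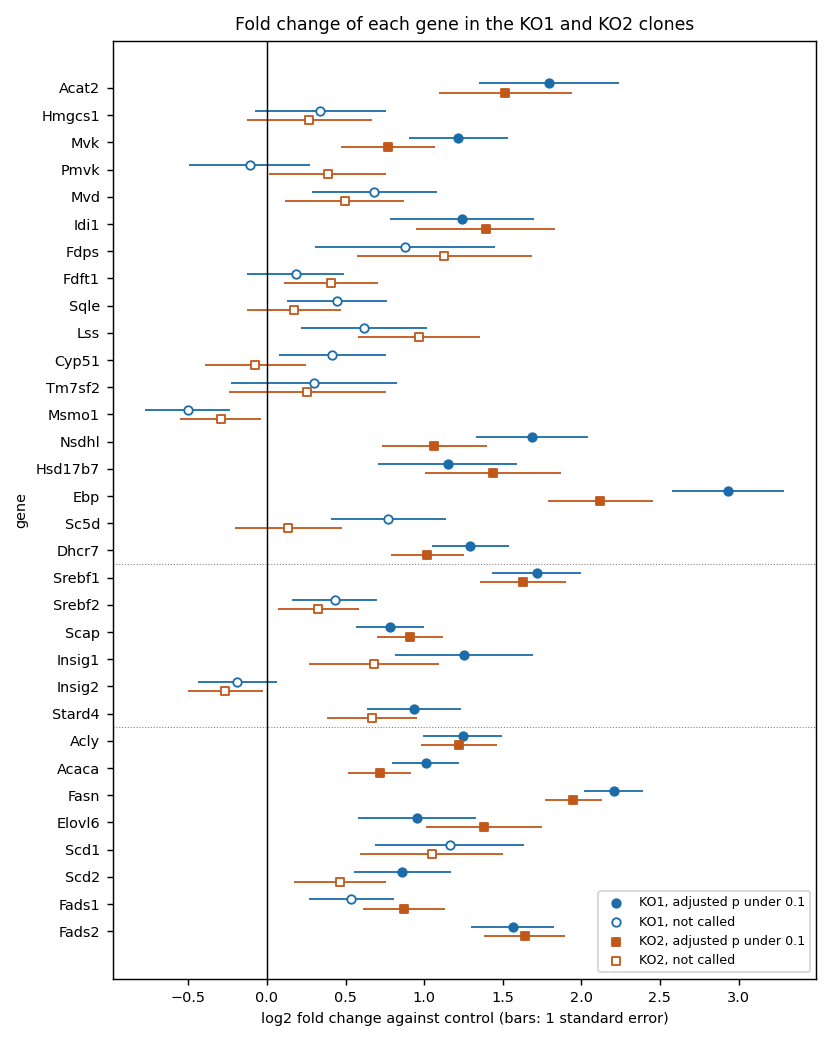
Log2 fold change against control of each gene (vertical axis, in order of role) in KO1 (circles) and KO2 (squares), with bars of 1 SE. Filled symbols have an adjusted p under 0.1, 17 in KO1 and 15 in KO2, and Ebp is the only gene called between the clones.

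Tested directly, 1 of the 32 members differed between the clones, where 19.6% of all tested genes did, 9.43% higher and 10.2% lower in KO1. Ebp was 7.64-fold higher than control in KO1 (79.6 ± 21.5 CPM, SD, n = 3) and 4.35-fold higher in KO2 (45.2 ± 14.7 CPM, SD, n = 4), beside 10.4 ± 0.60 CPM (SD, n = 2) in control. The log2 difference of KO1 from KO2 was 0.81 (SE 0.26, edgeR adjusted p = 0.0730), and the highest KO2 library, at 64.0 CPM, overlapped the lowest KO1 library. This call was made in 7 of 16 alternative fits. The log2 differences of the members between the clones ran from -0.49 (Pmvk) to 0.81 (Ebp).

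Leaving out single libraries moved the counts as follows. In KO1 the count was 8 without control replicate 1 (4.54% of all tested genes called higher in the same fit), 6 without control replicate 2 (5.35%), 11 without KO1 replicate 1 (12.6%) and 11 without KO1 replicate 3 (11.5%). In KO2 it was 6 without control replicate 1 (4.03%), 5 without control replicate 2 (4.30%) and 24 without KO2 replicate 2 (18.7%).

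**Figure D4:**
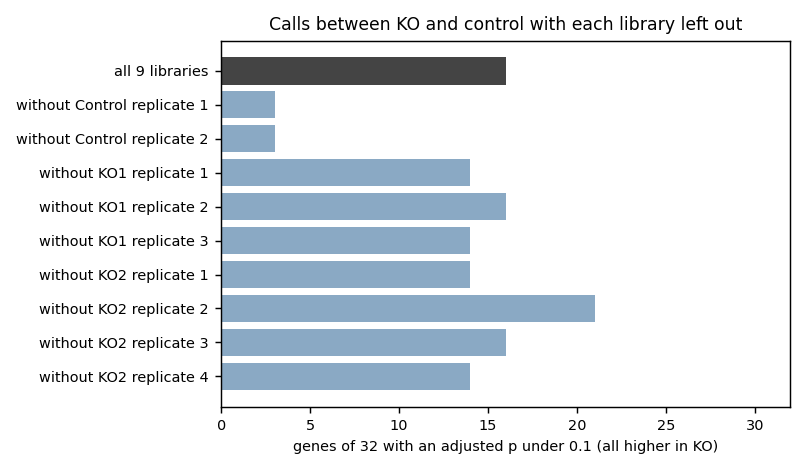
Number of the 32 members with an adjusted p under 0.1 in KO against control (horizontal axis) with all 9 libraries and with each library left out (vertical axis). The count is 16 with all libraries, 3 without either control library and 21 without KO2 replicate 2.

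Genes around the members were listed by function as a frame for these values. Calls in these lists stand beside 11.9% of all tested genes called higher and 10.7% called lower in KO against control. Of 7 genes that stand beside sterol synthesis or process SREBP, such as the proteases Mbtps1 and Mbtps2, 1 was called, Rnf139, a ubiquitin ligase of the sterol response, which was lower in KO (log2 fold change -0.43, edgeR adjusted p = 0.0488). Their median was -0.13. Of 10 genes of sterol export, storage and the LXR receptors, 7 were tested, 2 were lower and 0 were called higher. Their median log2 fold change was 0.29, with 4 of the 7 above 0. Against control, KO1 had 2 called higher, Nr1h2, the other LXR receptor, and Lpcat3, and 1 lower (15.9% and 15.7% of all tested genes). KO2 had 1 called higher, Soat1, and 2 lower (16.5% and 15.0%). Mylip, a ligase induced by LXR, was at 14.3 and 14.1 CPM in control and between 2.65 and 5.42 CPM in KO (log2 fold change -1.77, edgeR adjusted p = 0.00402). Nr1h3, an LXR receptor, was at 3.49 and 2.96 CPM in control and between 0.143 and 1.57 CPM in KO (log2 fold change -1.68, edgeR adjusted p = 0.0759). Abca1 and Abcg1, the exporters, did not pass the filter, with at most 0.303 CPM in a library.

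Of 25 other genes of fatty acid and glycerolipid synthesis, 22 were tested, 3 were higher and 1 was lower. The share called higher, 13.6%, was near the 11.9% of all tested genes. The median log2 fold change of the list was 0.34. Slc25a1, which exports citrate from mitochondria, rose by 1.39 on the log2 scale (edgeR adjusted p = 0.0791), Mlx, a partner of the carbohydrate-responsive factors, by 1.00 (adjusted p = 0.0123) and Acsl4, an acyl-CoA synthetase, by 0.70 (adjusted p = 0.0732). Fads3, the neighbor in sequence of Fads1 and Fads2, was lower, at 248 CPM in control and 72.1 CPM in KO on average (log2 fold change -1.78, edgeR adjusted p = 0.0103). The 15 tested of 16 fatty acid oxidation genes had a median log2 fold change of 0.15, and Hadh, a dehydrogenase of the cycle, was the gene called (0.79, edgeR adjusted p = 0.0191).

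**Figure D5:**
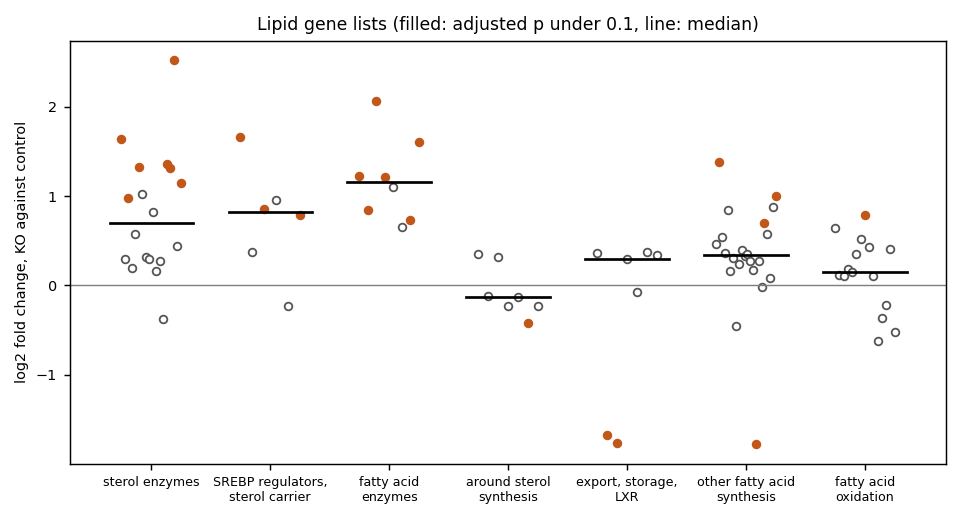
Log2 fold change in KO against control (vertical axis) of each tested gene in the 3 roles of the 32 members and in 4 lists of related genes (horizontal axis), with filled points for an adjusted p under 0.1 and a line at the median of each list. The fatty acid enzymes have the highest median, 1.16, and the genes around sterol synthesis the lowest, -0.13.

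Chromatin isolation by RNA purification (ChIRP) pulls down MaTAR25 with antisense oligos and sequences the DNA that comes with it. It gave 4 peak lists, 3 from 4T1 cells and 1 from NDL mammary tumor cells. For the NDL cells the sources differ, since the genotype label names MMTV-PyMT and the study's methods name MMTV-Neu-NDL. The study's supplement calls the cells of this list cNeu, which its methods give as a cell line. Peaks were called on pooled replicates, so there is no replicate check. The promoter nearest to a peak was that of 16 members in the list of the even oligo pool (52.9% of all tested genes had a peak in it), 22 for the odd pool (52.4%), 25 for the total set in 4T1 (59.6%) and 23 for NDL (58.0%). In the even list as analysed here no peak lies on chromosome 3, where Pmvk, Fdps and Elovl6 lie. Insig1 had the peak ranked 64 of 64607 in the even list, with a score of 656.3 at chr5:28083000-28083832, 8750 bases from its start and intergenic. The highest odd-list peak of Insig1, at chr5:28084981-28085831 (score 645.3, rank 1518 of 61311), was also intergenic and did not overlap that peak. Scd2 had the peak ranked 306 of 76806 in the total list of 4T1, intergenic and with a score of 681.7. In the odd list its highest peak lay at the same place (score 750.7, rank 1205 of 61311). In the even list its highest peak lay elsewhere, in an intron (score 40.3, rank 30699 of 64607). Srebf1 had a peak of score 112.8 in the even list, at chr11:60207347-60207971, and none in the odd list. That peak was annotated to the promoter of a transcript that starts inside the gene. Fasn had a peak of score 55.4 in an intron in the odd list and none in the even list. Its peak in the total list of 4T1 lay elsewhere (score 37.7, rank 42270 of 76806). Hmgcs1, Pmvk, Lss, Tm7sf2 and Ebp, the last with the largest difference in RNA, had the nearest promoter of no peak in any list. Peaks annotated inside Hmgcs1 were nevertheless in all 4 lists.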

How the data were processed

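Per the labels and the study's methods, the authors mapped single-end TruSeq v2 reads to GRCm38 with STAR and deposited raw counts per gene of GENCODE vM5 from HTSeq, with no normalization. Whether the counting used strand is not given in the sources read. KO2 replicate 2 lists every gene 3 times with identical counts, and each was used once. Of all reads in the count files, 33.9 to 37.0% were not assigned to a gene and were left out. The deposited ChIRP peak scores are from HOMER on Bowtie2 alignments, with the peaks called against a Ppib pulldown.

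Counts were fitted in R 4.3.3 with edgeR 4.0.16 (TMM library sizes, filterByExpr, glmQLFit, glmQLFTest, Benjamini-Hochberg over all genes tested, threshold 0.1), a test chosen in place of the authors' DESeq2 (1.42.0 here), which was an alternative. KO as 1 group and the clones in a 3-group fit were compared with control. CPM uses TMM library sizes. The common biological coefficient of variation was 42.0% with KO as 1 group. Replicate numbers did not pair the libraries. The members, the related lists and the naming rule were set with earlier results of these data known. The genes given by library are the called members and 11 named at the start whatever they showed. Gene positions are from GENCODE vM21. Alternatives varied the test, normalization, filter, threshold, libraries and grouping. Some genes of the pathway and of the marker lists are not reported here.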

Additional observations from a re-analysis of the deposited data

Results flagged for a closer look

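Within KO2, 32 groups of 4 libraries were checked for a library far from the others, and chance gives about 1 in 20 such results. Nsdhl in KO2 replicate 2 was at 29.2 CPM, far below the 53.4 to 58.2 CPM of the other 3 KO2 libraries. Insig2 in KO2 replicate 4 was at 90.8 CPM, above the 52.4 to 55.7 CPM of the other 3.

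Ebp differed between the clones in the direct test, with KO1 higher than KO2 by 0.81 on the log2 scale (edgeR adjusted p = 0.0730), from 0.58 to 1.02 over the alternatives.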

How the results depend on the processing

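Percentages here are the share of all tested genes called higher in the same fit, or in either direction between the clones. With a threshold of 0.05, the called members were 10 in KO against control (7.77%), 11 in KO1 (11.3%), 14 in KO2 (11.3%) and 0 between the clones (10.9%), Ebp being lost, and with only the 2 KO groups in the fit the count was also 0 (13.6%). Leaving out 1 library at a time gave 3 to 21 members in KO against control (1.26 to 13.8%), 6 to 19 in KO1 (4.54 to 18.7%), 5 to 24 in KO2 (4.03 to 18.7%) and 0 to 1 between the clones (5.79 to 27.5%). DESeq2 called 18 (16.1%), 18 (17.5%), 19 (18.2%) and 1 (23.0%). With only KO1 and control in the fit, 25 members were called in KO1, 24 higher (27.4%) and 1 lower (26.6%). A member was called lower in KO2 with the replicate block and without KO2 replicate 4, 1 each time.

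Same-numbered libraries of different groups did not deviate together (correlations from -0.15 to 0.04), so the numbers do not pair them. With the replicate number as a block, 9 members were called in KO against control (6.84%), 17 in KO1 (13.5%), 13 in KO2 (12.6%) and 1 between the clones (11.6%). The block turned the log2 fold changes of Hmgcs1 (-0.00074 in KO against control, -0.20 in KO2), Pmvk (-0.016 in KO against control) and Tm7sf2 (-0.11 in KO2), none of them called.

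Leaving out 1 library at a time turned 4 other uncalled log2 fold changes: Pmvk in KO1 (-0.34 to 0.066), Sqle in KO2 (-0.059 to 0.36), Cyp51 in KO2 (-0.31 to 0.12) and Sc5d in KO2 (-0.031 to 0.34). The cause was not tested. Only peaks with a score of at least 100 left 7 members in the even list (18.5% of all tested genes), 11 in the odd (23.4%), 13 in the total (26.1%) and 10 in NDL (22.6%), and peaks inside a gene left 14 in the odd list (40.4%). With 2 control libraries, calls of modest folds rest on both of them.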

Other observations

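Outside the members, 3 of 22 tested genes in the list of other fatty acid and glycerolipid synthesis genes differed between the clones, where 19.6% of all tested genes did. Mid1ip1, which activates acetyl-CoA carboxylase, was at 31.2 CPM in control, 88.1 CPM in KO1 and 32.1 CPM in KO2 on average (KO1 against KO2 log2 difference 1.46, edgeR adjusted p = 0.00829). Acacb, the mitochondrial form of that carboxylase, was at 7.17, 13.8 and 5.74 CPM (1.26, edgeR adjusted p = 0.0339). Acsl1, an acyl-CoA synthetase, was at 21.4, 16.2 and 33.0 CPM (-1.02, edgeR adjusted p = 0.0158). In the oxidation list, 5 of 15 tested genes were called higher in KO1 (15.9% of all tested genes), 1 in KO2 (16.5%) and 4 in KO1 against KO2 (9.43%). Among the 4 was Cpt1a, which lets fatty acids into mitochondria, at 36.3 CPM in control, 78.4 in KO1 and 40.9 in KO2 (KO1 against KO2 0.94, edgeR adjusted p = 0.0535).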
